A study of Homo sapiens with 6 samples.

Results

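The zinc finger genes of human chromosome 19 were examined in CUT&Tag peak lists for CTCF and SMC1 from IMR90 cells. Members were the protein-coding genes placed on chromosome 19 of GRCh38 whose symbol is ZNF followed by a number, a choice made from name and place alone. This gave 246 genes, 6 of them with a letter after the number, beside 1157 other protein-coding genes of the chromosome and 19630 genome-wide. Their annotated length ran from 2469 to 487995 bp with a median of 23152 bp, against 12680 bp for the other chromosome 19 genes.

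In CUT&Tag a transposase is tethered through an antibody to sites where a protein sits, and the fragments it releases are sequenced. IMR90 are human lung fibroblasts, a cell strain that stops dividing after enough passages. CTCF is a DNA-binding insulator protein, itself built of zinc fingers, and SMC1 is a subunit of cohesin, the ring that extrudes chromatin loops. Each antibody had 1 library of control cells, 1 of ICM-treated cells (ICM is inflachromene, a small molecule binding HMGB1 and HMGB2) and 1 of senescent cells, so all 6 groups are single libraries without replicates. All 6 sample titles begin with I79, a label that they do not explain. They give p21 for CTCF control cells, p16 for SMC1 control cells, p16 for both ICM libraries and p34 for both senescent ones. Senescence was taken from the series design, since the p34 titles name no treatment. Only the CTCF library of ICM-treated cells carries a number of days, 6. With the 2 CTCF libraries of untreated and treated cells at different p numbers, passage and treatment cannot be told apart there.

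The authors kept the top 1% of enriched regions of each library, which left 4673, 6728 and 8577 nuclear CTCF peaks in control, ICM and senescent cells, and 14883, 17809 and 12927 SMC1 peaks. Of these, 356 to 664 CTCF peaks and 701 to 819 SMC1 peaks lay on chromosome 19. Signals were not on a scale shown to be common between lists, so a peak's strength is given here as its percentile by total signal within its own list. The lists do not give read depth, and the study's methods state a minimum number of reads but no total per library. Of 8 fibroblast marker genes, 5, 4 and 4 had an SMC1 peak at the 5' end in control, ICM and senescent cells (33.3%, 29.2% and 24.3% genome-wide). CTCF lay at 3, 4 and 2 of them (10.6%, 15.1% and 11.3% genome-wide). None of the 6 matched markers of other cell types (immune, epithelial and liver) had a peak of either antibody there. PECAM1 was also planned as such a marker but was not matched.

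Most proteins encoded by these genes carry arrays of C2H2 zinc fingers that read DNA, and many carry a KRAB domain in front of them. The KRAB domain recruits TRIM28, which in turn brings the methyltransferase SETDB1 and the HP1 proteins, and this machinery silences transposable elements. The genes arose by repeated local duplication and stand in long runs along the chromosome. Their last exon usually encodes the finger array, and this 3' part is known to carry the silencing mark H3K9me3 in many cell types, also where the promoter is active. Whether reads that match several of these similar genes were kept is not given in the sources used here, and its part in the counts was not tested.

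The promoters of 4 members are shown because they stand at both ends of what was found. ZNF576 and ZNF20 had CTCF and SMC1 peaks at the 5' end in all 6 lists, and ZNF91 and ZNF93 had none in any list. Each sequence is the RefSeq window of 250 bases before and 50 after the start (GRCh38.p14), 5′ to 3′ on the gene's strand, with CG dinucleotides in capitals. The windows are chr19:43596142-43596441 on the plus strand, chr19:12140301-12140600 on the minus strand, chr19:23395422-23395721 on the minus strand and chr19:19900696-19900995 on the plus strand.
ZNF576: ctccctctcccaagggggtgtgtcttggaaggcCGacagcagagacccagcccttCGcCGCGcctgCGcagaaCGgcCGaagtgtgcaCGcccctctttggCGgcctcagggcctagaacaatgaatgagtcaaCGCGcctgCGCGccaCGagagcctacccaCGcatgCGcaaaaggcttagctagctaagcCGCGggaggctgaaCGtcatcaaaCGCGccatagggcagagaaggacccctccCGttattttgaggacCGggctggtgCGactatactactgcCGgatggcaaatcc
ZNF20: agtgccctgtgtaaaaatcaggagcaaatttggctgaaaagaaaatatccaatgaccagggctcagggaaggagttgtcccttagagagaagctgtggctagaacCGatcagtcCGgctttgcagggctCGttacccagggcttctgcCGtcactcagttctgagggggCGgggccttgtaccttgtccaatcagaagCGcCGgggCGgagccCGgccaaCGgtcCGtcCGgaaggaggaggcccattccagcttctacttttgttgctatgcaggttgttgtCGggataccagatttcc
ZNF91: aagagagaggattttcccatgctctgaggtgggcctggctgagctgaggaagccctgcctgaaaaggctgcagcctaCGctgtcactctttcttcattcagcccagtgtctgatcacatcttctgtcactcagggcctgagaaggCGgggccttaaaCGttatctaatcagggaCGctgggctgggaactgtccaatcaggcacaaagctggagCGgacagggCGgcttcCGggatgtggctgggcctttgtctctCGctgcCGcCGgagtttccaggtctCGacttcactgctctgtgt
ZNF93: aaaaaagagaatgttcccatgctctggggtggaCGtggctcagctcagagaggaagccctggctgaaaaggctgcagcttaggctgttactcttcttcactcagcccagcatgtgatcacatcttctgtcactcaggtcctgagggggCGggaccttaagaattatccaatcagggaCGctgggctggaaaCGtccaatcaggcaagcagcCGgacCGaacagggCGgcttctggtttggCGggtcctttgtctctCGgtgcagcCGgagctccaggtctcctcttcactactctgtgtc
ZNF576 held 25 CG dinucleotides at 62% G+C and ZNF20 held 13 at 55.3%. ZNF91 held 11 at 57.3% and ZNF93 held 10 at 56%, so the number of CG dinucleotides in ZNF20 was close to that of the pair without peaks.

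At their 5' ends, zinc finger genes carried SMC1 about as often as their neighbours and CTCF less often. A gene was counted when a peak overlapped the 1 kb on either side of its outermost 5' end. In control cells SMC1 lay over 79 of 246 members (32.1%) and over 34.1% of the other chromosome 19 genes, with 33.3% genome-wide. The difference was -1.94 percentage points (Newcombe 95% interval -8.12 to 4.69). In ICM-treated cells SMC1 lay over 70 members (28.5%) against 31.5% of the others (29.2% genome-wide), a difference of -3.01 points (-8.95 to 3.48). In senescent cells it again lay over 70 members (28.5%), now against 27.0% of the others (24.3% genome-wide), a difference of 1.49 points (-4.40 to 7.92). All 3 SMC1 intervals include 0. Intervals here cover counting over genes only, and neighbouring genes share chromatin and are not independent.

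CTCF was found over 15 members (6.10%) in control cells, against 13.7% of the other chromosome 19 genes and 10.6% genome-wide. With ICM it was found over 28 members (11.4%) against 19.3% (15.1% genome-wide), and in senescence over 23 members (9.35%) against 16.7% (11.3% genome-wide). The differences were -7.65 points (-10.8 to -3.49), -7.89 points (-12.0 to -2.83) and -7.33 points (-11.1 to -2.58), so none of the 3 CTCF intervals reached 0. Set against genes of other chromosomes instead, the differences were -4.35 points in control (-6.76 to -0.607), -3.48 with ICM (-6.91 to 1.12) and -1.59 in senescence (-4.66 to 2.73), so that only the control interval lay clear of 0. Of all members, 106 had a 5' peak in at least 1 of the 6 lists (43.1%, beside 41.4% of the other chromosome 19 genes and 40.8% genome-wide). For SMC1 these were 99 members (40.2%, 38.3% genome-wide) and for CTCF 31 (12.6%, 16.8% genome-wide).

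Over the whole gene body the gap for CTCF was wider. CTCF peaks overlapped 20, 37 and 31 member bodies in control, ICM and senescent cells (8.13%, 15.0% and 12.6%), while the other chromosome 19 genes, of shorter median length, stood at 22.5%, 29.7% and 30.3% (17%, 23.7% and 22.6% genome-wide). SMC1 peaks overlapped 95, 88 and 88 member bodies (38.6%, 35.8% and 35.8%), against 40.9%, 39.9% and 34.8% of the others and 42.2%, 40.6% and 34.1% genome-wide.

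**Figure D1:**
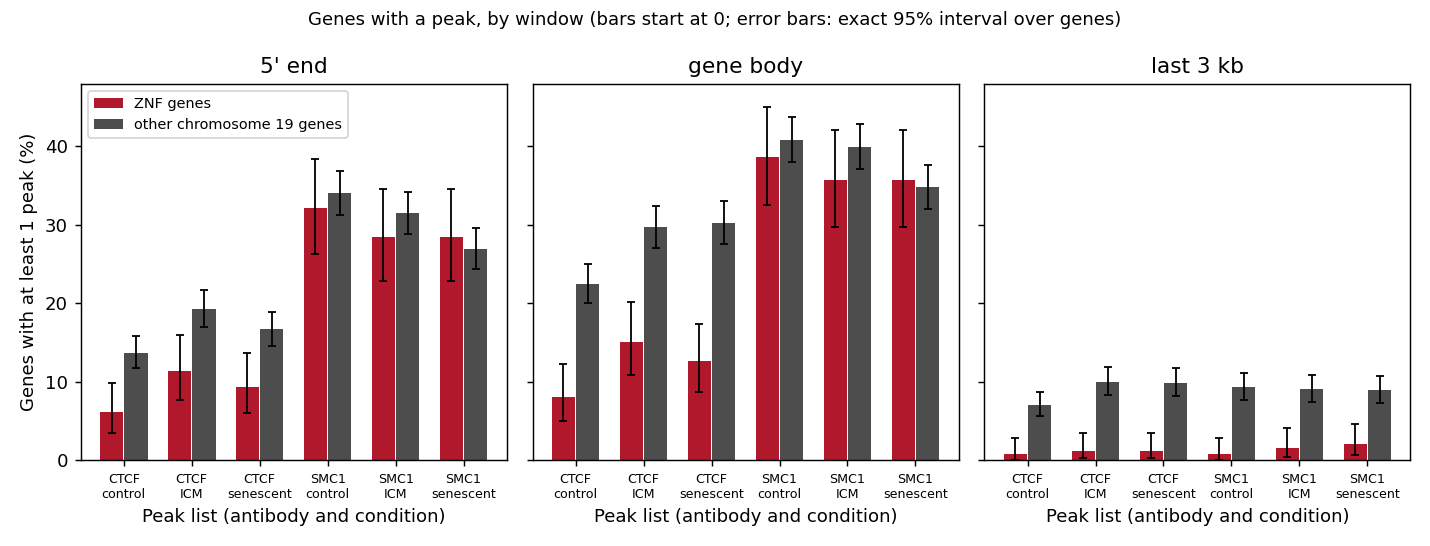
Share of genes with at least 1 peak (vertical axis, percent) in each of the 6 peak lists, for the 246 ZNF genes in red and the 1157 other protein-coding genes of chromosome 19 in grey. The panels are the 5' end, the gene body and the last 3 kb, and error bars are exact Clopper-Pearson 95% intervals over genes. The red SMC1 bars at the 5' end reach 28.5% to 32.1% beside grey bars of 27.0% to 34.1%, while in the last 3 kb no red bar exceeds 2.03% and no grey one lies below 7.09%.

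The peaks counted at member starts had their summits close to the start, and coverage dropped within 2 kb of it. In control cells SMC1 peaks covered the start itself in 30.5% of members, and 2 kb downstream they covered 0.813%. The matching values were 27.6% and 0.813% with ICM, and 26.8% and 1.22% in senescence. The other chromosome 19 genes went from 29.1%, 26.1% and 20.3% at the start to 2.42%, 2.85% and 2.94% at the same distance. Of the SMC1 peaks counted at members, 95.1%, 94.4% and 94.4% had their summit within 500 bp of the start, against 79.2%, 77.9% and 72.4% for the others. For CTCF these shares were 80%, 82.1% and 69.6% at members, on 15, 28 and 23 peaks, and 66.0%, 67.7% and 62.1% at the others.

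**Figure D2:**
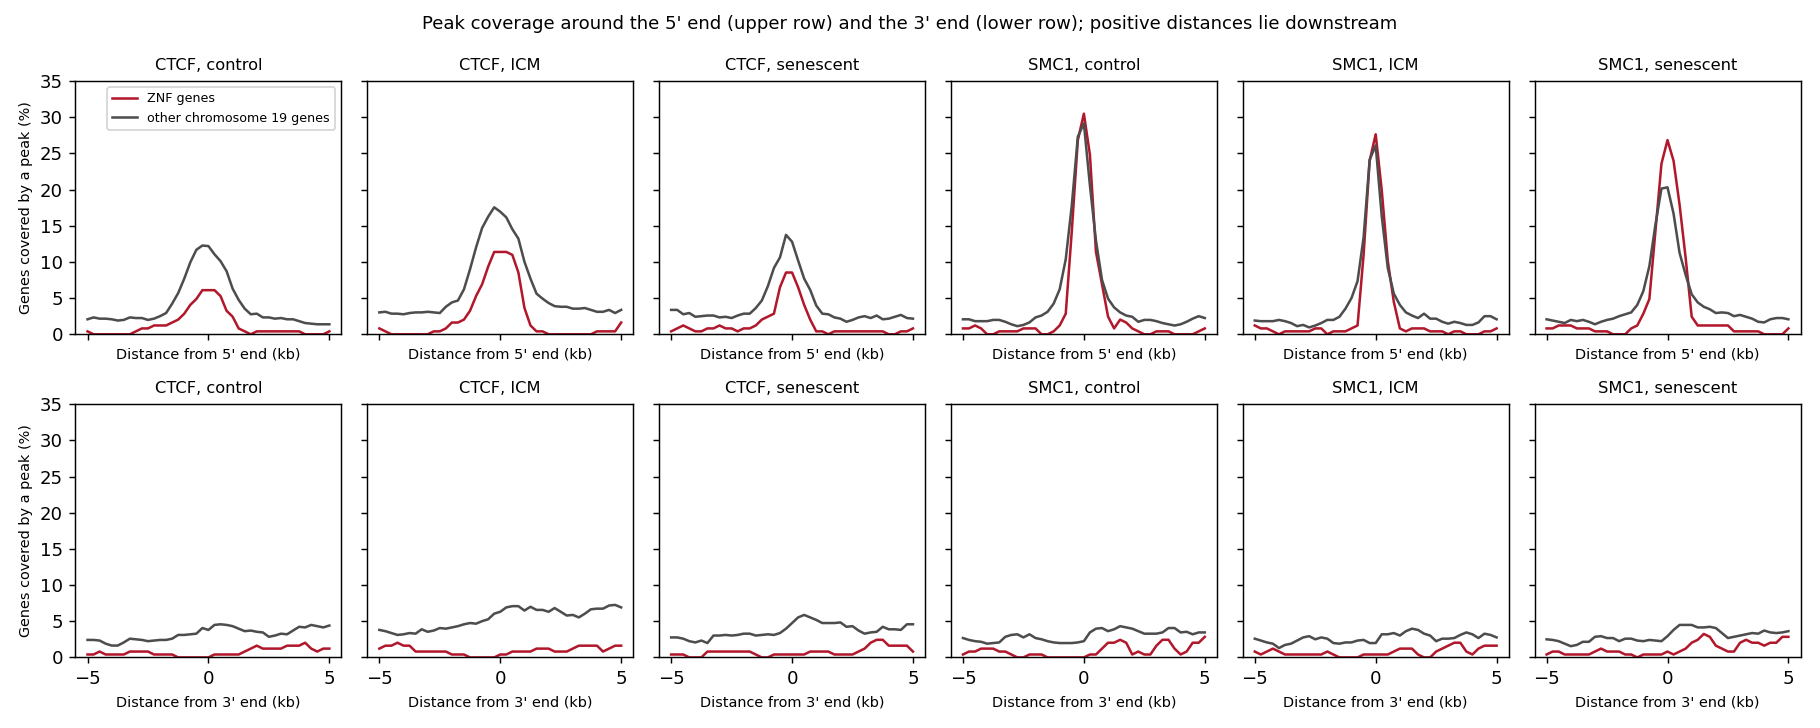
Share of genes covered by a peak (vertical axis, percent) by distance from the 5' end (upper row) and the 3' end (lower row) in kb, in the 6 peak lists, for ZNF genes in red and other chromosome 19 genes in grey. Both SMC1 lines rise to similar heights at the start in control and ICM-treated cells (30.5% and 29.1% in control). The red CTCF lines stay under the grey ones there (6.10% and 12.2% in control). Over the last 3 kb before the 3' end the red lines stay at or below 1.22%. Downstream of it they rise, for SMC1 in senescence to 3.25% at 1500 bp, beside 4.15% for the grey line.

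Counted over the interior of the genes, defined for the 227 members and 800 other chromosome 19 genes of at least 8 kb by leaving out the 5' window and the last 3 kb, SMC1 peaks reached 28, 22 and 27 members (12.3%, 9.69% and 11.9%). The other genes stood at 19.1%, 20.6% and 20.4% (22.7%, 25.5% and 21.7% genome-wide). CTCF reached 9, 16 and 9 member interiors (3.97%, 7.05% and 3.97%) against 16.8%, 21.1% and 23.3% of the others (12%, 18.4% and 17.1% genome-wide). Per Mb of interior sequence, members held 0.826, 1.65 and 1.49 CTCF summits, the other chromosome 19 genes 5.57, 6.87 and 10.2, and all protein-coding genes 1.20, 1.76 and 2.48. The SMC1 values were 4.30, 3.96 and 3.80 per Mb in members, 10.1, 11.7 and 9.58 in the others, and 4.22, 5.63 and 3.87 genome-wide. Thus per Mb the members stood below their chromosome by over 2-fold in all 6 lists, but closer to the genome as a whole.

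Of the 96 SMC1 peaks that touched a member's body in control cells, 19 lay clear of every protein-coding 5' window (19.8%, against 42.1% for the other genes), and 4 lay clear of every start in the RefSeq promoter table as well. With ICM 20 of 89 peaks were clear of the 5' windows and 5 of every start, and in senescence 18 of 86 and 3. For CTCF, 2 of 18, 5 of 35 and 8 of 31 peaks over member bodies were clear of the 5' windows, against 48.3% to 63.2% for the other genes. Counting a peak at any RefSeq start of a gene, not just the outermost one, gave SMC1 at 85, 76 and 76 of the 216 members in the table (39.4%, 35.2% and 35.2%), beside 37.3%, 34.7% and 30.3% of the other chromosome 19 genes and 37.3%, 33.1% and 27.4% genome-wide.

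In the last 3 kb, where the finger exons usually lie, peaks were rare. CTCF lay there in 2, 3 and 3 members (0.813%, 1.22% and 1.22%), while 7.09%, 10.03% and 9.85% of the other chromosome 19 genes had one (4.01%, 5.62% and 5.1% genome-wide). SMC1 lay there in 2, 4 and 5 members (0.813%, 1.63% and 2.03%), against 9.33%, 9.08% and 8.90% of the others (5.42%, 5.19% and 5.19% genome-wide). Over all 6 lists 7 members had such a peak (2.85%), against 18.6% of the other chromosome 19 genes and 10.6% genome-wide. All 6 difference intervals lay below 0. Of the members 227 were at least 8 kb long, and of the 1157 others 800, so more of the others had their start near the last 3 kb. Among genes of at least 8 kb the SMC1 differences were -6.00, -5.56 and -5.62 points, against -8.52, -7.45 and -6.87 over all genes. For CTCF they were -6.25, -7.68 and -8.56, against -6.27, -8.81 and -8.63. These 6 intervals also lay below 0.

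The 7 members were ZNF575, ZNF524, ZNF580, ZNF581, ZNF653, ZNF765 and ZNF324, and in several of them the peak belonged as much to a start as to an end. ZNF524 is 3565 bp long, and its peaks reached its own 5' window and that of FIZ1 in 5 lists. The ZNF653 peak touched the 5' window of ELAVL3 and the ZNF324 peak that of ZNF446. ZNF580, 2469 bp long, had a CTCF peak at its own start in the ICM and senescent lists, and it shared 1 SMC1 peak with ZNF581 in each of these conditions (percentiles 16.4 and 16.1).

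ZNF575 was the member with a peak in its last 3 kb, clear of every protein-coding 5' window, in 5 of the 6 lists. This gene is 5253 bp long (chr19:43530835-43536087, plus strand) and had no peak at its 5' end in any list. Its SMC1 peaks stood at percentiles 75.8, 78.4 and 87.5 in control, ICM and senescent cells. CTCF was near the floor of the control list there (percentile 1.22), was not called with ICM, and formed 2 peaks in senescence, at percentiles 48.9 and 6.54. ZNF765, a gene of 32173 bp, had the only other clear CTCF peak, in senescence (percentile 34.8).

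By strength, the peaks at member starts ranked below those of other chromosome 19 genes. The median percentile of SMC1 peaks at members was 41.4 in control, 54.3 with ICM and 58.0 in senescence, against 65.1, 63.2 and 70.3 at the other genes. For CTCF it was 49.7, 38.8 and 42.3 against 64.8, 66.8 and 57.4. Over all protein-coding genes the medians were 60.7, 60.6 and 59.7 for SMC1 and 58.6, 56.3 and 55.2 for CTCF. By highest signal, the CTCF medians were 52.6, 33.9 and 35.2 at members and 54.3, 55.8 and 46.3 at the others. The SMC1 medians were then 39.8, 53.5 and 49.7 against 65.0, 63.6 and 65.45. When only peaks above each list's median signal were kept, the SMC1 difference in control cells moved to -10.5 points (-14.9 to -5.20). With ICM the SMC1 difference was then -3.44 points (-8.32 to 2.26), and in senescence -2.84 points (-7.56 to 2.72). Of these SMC1 intervals, only that of control cells lay wholly on the negative side.

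**Figure D3:**
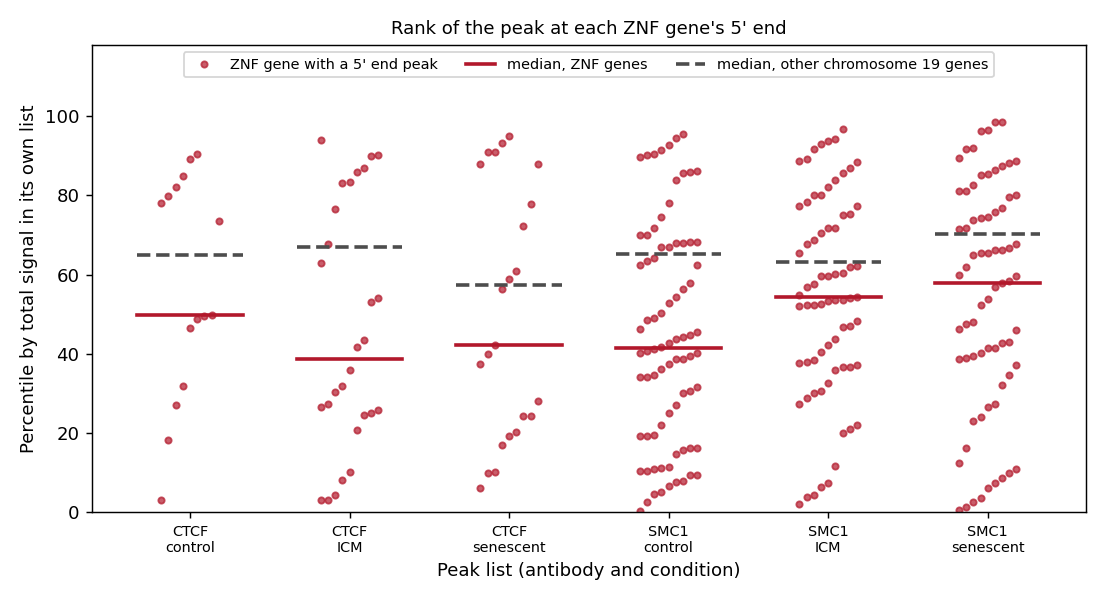
Percentile by total signal (vertical axis) of the peak at the 5' end of each ZNF gene that had one, in the 6 peak lists. Red points are genes, and bars are medians of ZNF genes (solid red) and of other chromosome 19 genes (dashed grey). The points spread over nearly the whole scale, from 0.376 to 95.5 for SMC1 in control cells, and the solid bar lies under the dashed one in each list.

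The members with peaks in all 6 lists were ZNF576, ZNF329, ZNF865, ZNF20, ZNF763, ZNF491 and ZNF555. These are 7 of 246 (2.85%), beside 9.25% of the other chromosome 19 genes and 5.72% genome-wide. ZNF763 had the highest ranked CTCF peak of any member in each condition, at percentiles 90.5, 93.8 and 95.02, with SMC1 at 64.3, 80.2 and 98.4. Its CTCF peak in control cells spanned chr19:11963653-11965815, and the CTCF summit lay at -305 bp from the start, with the SMC1 summit at -64 bp. In ZNF20, whose promoter is printed above, CTCF ranked at percentiles 84.8, 90.1 and 90.9 and SMC1 at 69.9, 92.9 and 85.3. The control CTCF and SMC1 summits of ZNF20 lay at -150 and -116 bp from the start, inside the printed window.

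ZNF329 was high for both antibodies, with CTCF at percentiles 89.1, 89.8 and 91.0 and SMC1 at 91.4, 86.8 and 96.3. ZNF555 was high for CTCF (82.0, 83.4 and 93.2) but near the floor for SMC1 in control cells (6.63), with 20.9 under ICM and 71.4 in senescence. ZNF576 showed the opposite order, with SMC1 at 94.4, 96.7 and 98.5 and CTCF at 27.0, 76.5 and 20.4. The control SMC1 summit of ZNF576 lay at -139 bp from the start, inside the printed window, while its control CTCF summit lay at -1498 bp. ZNF554 and ZNF582 had CTCF peaks at the 5' end in all 3 conditions (18.3 to 60.8 and 46.4 to 72.3) and no SMC1 peak in any list, and both were picked out after their values were seen.

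The other member chosen as 1 of the 2 highest ranked in a list was ZNF524. ZNF146 was named by other rules. It was 1 of the 3 members with CTCF in control and ICM only, and had 1 CTCF body peak in control, where ties went by symbol. ZNF524 led the SMC1 control list among members at percentile 95.5, with 94.1 under ICM and 74.3 in senescence, while its CTCF peak stood at 3.06 in control, at 43.6 with ICM and was not called in senescence. ZNF146, which encodes a protein made almost wholly of fingers, had SMC1 at 92.8, 88.7 and 88.7. Its CTCF peak stood at 49.5 in control and 20.7 with ICM, and was not called in senescence.

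Most CTCF peaks at member starts came with SMC1, but most SMC1 peaks came without CTCF. The control libraries were p21 for CTCF and p16 for SMC1, and the SMC1 list was the longer in each condition. The part of either in these shares was not tested. In control cells 12 of the 15 CTCF members also had SMC1 (80%, exact 95% interval 51.9 to 95.7), as did 88.7% of the other chromosome 19 genes with CTCF. Of all protein-coding genes with CTCF, 84.1% also had SMC1. With ICM it was 19 of 28 (67.9%, others 81.2%, 77.2% genome-wide), and in senescence 14 of 23 (60.9%, others 75.7%, 69.1% genome-wide). Counted over all genes, with or without CTCF, both antibodies lay at 8.9%, 11.6% and 7.78% in the 3 conditions. Of the members with SMC1, 15.2%, 27.1% and 20% also had CTCF, against 35.8%, 49.7% and 46.8% of the others. Among all protein-coding genes with SMC1 these shares were 26.8%, 39.9% and 32.1%.

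Of the 99 members with SMC1 at the start in any condition, 45 had it in all 3 (18.3% of members, others 22.4%, 19.3% genome-wide). Among the other chromosome 19 genes it was 259 of 443. Another 14 had it in control and ICM (6.9% genome-wide), 12 in control and senescence (4.88%, others 1.99%, 2.14% genome-wide) and 4 in ICM and senescence (0.886% genome-wide). It was found in control alone at 8 members (4.95% genome-wide), in ICM alone at 7 (2.14%) and in senescence alone at 9 (1.95%). Of the 79 members with SMC1 in control cells, 59 kept it with ICM (74.7%, exact 95% interval 63.6 to 83.8) and 57 in senescence (72.2%, 60.9 to 81.7). The other chromosome 19 genes kept it in 84.8% and 71.6%, and all genes in 78.7% and 64.4%.

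The SMC1 share at member starts differed from control by -3.66 points with ICM (20 members lost and 11 gained) and by -3.66 in senescence (22 lost and 13 gained), beside differences of -2.59 and -7.09 in the other chromosome 19 genes and -4.06 and -9.02 genome-wide. With lists cut to equal length the values were -2.03 and 2.03 points, and with peaks above each list's median signal 4.88 and 3.66, so the direction turned with how much of a list was kept. For CTCF the share differed by 5.29 points with ICM (none lost and 13 gained) and by 3.25 in senescence (3 lost and 11 gained), beside 5.53 and 2.94 in the other chromosome 19 genes and 4.49 and 0.667 genome-wide. The CTCF lists of these conditions were also longer, and with lists of equal length the differences were 0.407 and -1.63 points. Each condition is 1 library, so these differences have no replicate error and were not tested.

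For SMC1, the top members found in senescence alone were ZNF428 (percentile 75.7), ZNF544 (73.9) and ZNF776 (47.5). Those in control and ICM but not senescence were ZNF441 (34.3 and 78.4), ZNF627 (48.5 and 77.4) and ZNF460 (71.8 and 75.03). ZNF571 (40.3 and 74.6), ZNF181 (19.98 and 64.9) and ZNF573 (37.8 and 32.2) had it in ICM and senescence but not control. The members with SMC1 in control alone or ICM alone ranked lower. ZNF823 (34.7), ZNF784 (27.0) and ZNF805 (16.2) led the former, and ZNF17 (37.2), ZNF443 (30.7) and ZNF304 (22.0) the latter.

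CTCF lay at 12 members in all 3 conditions (4.88%, others 11.6%, 8.34% genome-wide). All 15 control members kept it with ICM and 12 of them in senescence, so that no member had it in control alone (0.352% genome-wide) or in control and senescence without ICM (0.204% genome-wide). ZNF616, ZNF146 and ZNF524 were the 3 with CTCF in control and ICM only (1.69% genome-wide). A further 8 had it in ICM and senescence but not control (1.53% genome-wide), led by ZNF180, ZNF266 and ZNF772. ICM alone had 5 (3.52% genome-wide), led by ZNF699, ZNF473 and ZNF414, and senescence alone had ZNF256, ZNF383 and ZNF761 (1.18% genome-wide).

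The members known for their functions differed in their peaks. ZNF91, a repressor of SVA elements, ZNF93, a repressor of LINE-1 elements, and ZNF224, a KRAB repressor, had no peak of either antibody over the 5' end or the gene body in any list. ZNF274, which brings SETDB1 to the 3' ends of other zinc finger genes, had SMC1 at its start in control (percentile 37.5) and ICM (62.0), not in senescence, and no CTCF. ZNF473, which takes part in processing the 3' ends of histone transcripts, had SMC1 in control (74.6) and senescence (81.1) and CTCF with ICM (24.6). ZNF331, an imprinted gene with several promoters, had no peak at its outermost start, but its body of 77035 bp held 1 SMC1 peak in control and 3 with ICM, none in senescence, and 1 CTCF peak in senescence. By number of body peaks ZNF69 led, with 2 CTCF and 3 SMC1 peaks in control cells. Its annotated body of 92441 bp covers all of ZNF700 and most of ZNF763, with the starts of both. The CTCF peaks were those at the starts of ZNF700 and ZNF763, and the SMC1 peaks those at the starts of ZNF69, ZNF700 and ZNF763. ZNF324B had 2 SMC1 peaks over its body in control cells.

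Along the chromosome the members fell into 10 runs of at least 5, with neighbouring starts no more than 500 kb apart, holding 232 of the 246. The share with SMC1 differed widely between runs. In the run from ZNF653 to ZNF791 on the short arm, 16, 14 and 13 of 25 members had SMC1 at the 5' end in control, ICM and senescent cells (64%, 56% and 52%), and 4, 6 and 6 had CTCF. This run holds ZNF763, ZNF20 and ZNF491. The run at the far end of the long arm, from ZNF264 to ZNF446, had SMC1 at 17, 17 and 11 of 43 and CTCF at 1, 2 and 3. From ZNF146 to ZNF573 SMC1 lay at 11, 8 and 11 of 26 and from ZNF628 to ZNF835 at 8, 7 and 7 of 16. From ZNF175 to ZNF331 it lay at 8, 7 and 10 of 39, and from ZNF575 to ZNF180 at 7, 4 and 7 of 23. The run from ZNF414 to ZNF846 had 3, 3 and 3 of 13. The smallest runs, ZNF554 to ZNF77 and ZNF302 to ZNF792, had 3, 3 and 2 of 5 and 0, 1 and 1 of 5. Genome-wide the SMC1 shares were 33.3%, 29.2% and 24.3%.

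The run from ZNF101 to ZNF254, next to the centromere, was almost empty. It spans 4.46 Mb (chr19:19668153-24129968) with 37 members, ZNF91 and ZNF93 among them, and only 2 other protein-coding genes. No member had CTCF at the 5' end in any list (0 of 37, which allows a share of up to 9.49% by the exact 95% interval). SMC1 lay at 1, 2 and 0 of 37. The genes were ZNF254 in control (percentile 30.0) and ICM (37.9), and ZNF430 with ICM (6.41). Over the whole span there were 0, 0 and 1 CTCF summits and 3, 4 and 3 SMC1 summits, or 0.672, 0.897 and 0.672 SMC1 summits per Mb, against 20.9, 19.1 and 14.8 in the run from ZNF653 to ZNF791. Without the 37 genes, the remaining 209 members had SMC1 at 37.3%, 32.5% and 33.5%, and CTCF at 7.18%, 13.4% and 11%. The SMC1 differences from the other chromosome 19 genes were then 3.27 points (-3.59 to 10.5), 1.08 (-5.51 to 8.19) and 6.53 (-0.0702 to 13.6), which turned the sign in control and ICM, and the CTCF differences were -6.57, -5.88 and -5.68. Leaving this run out was chosen after the values were seen.

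**Figure D4:**
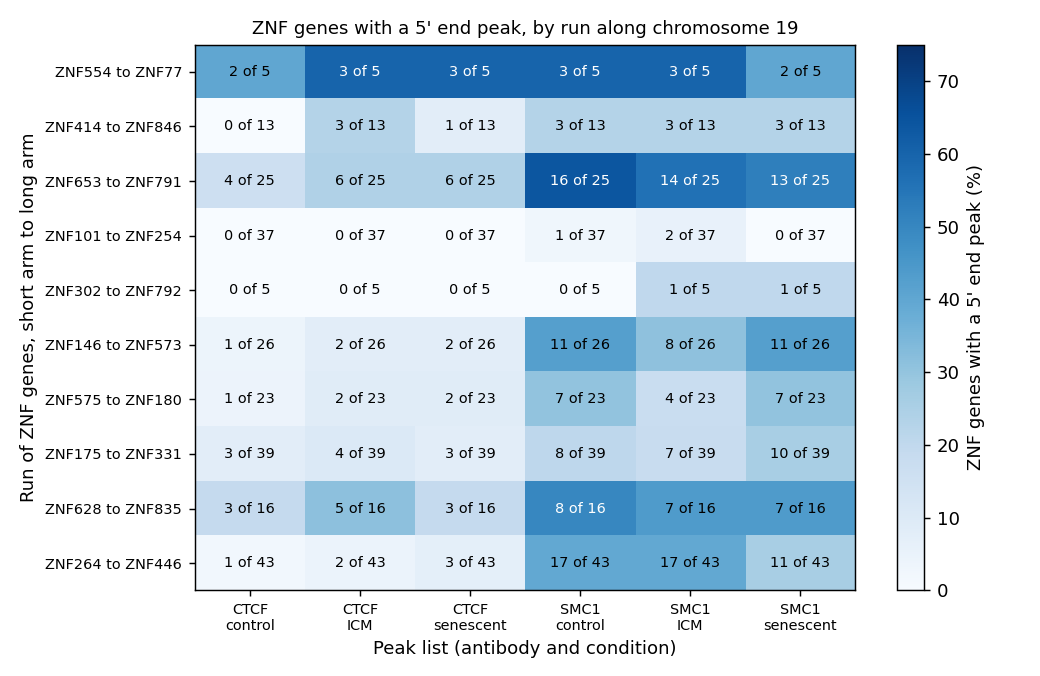
Share of members with a 5' end peak (colour, percent) in each of the 10 runs of ZNF genes (vertical axis, in order along chromosome 19) and each of the 6 peak lists (horizontal axis), with the counts written in the cells. The run from ZNF101 to ZNF254 is nearly blank, with 0 to 2 of 37, while the run from ZNF653 to ZNF791 has SMC1 at 13 to 16 of 25.

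A RefSeq promoter window at the outermost start was matched for 179 members. Its median G+C content was 60%, against 64% for 865 other chromosome 19 genes, with a median of 20 and 22 CG dinucleotides. In the run from ZNF101 to ZNF254 the medians were 55.8% and 10 over 24 members with sequence, and in the remaining 155 members 61% and 22. Members with an SMC1 peak in any list had a median of 23 CG dinucleotides and those without 17.5, while among all protein-coding genes these were 27 and 15.

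Core letters of the CTCF motif (CCA, AG and GGC in this order, with 2 free bases in each of the gaps between them) were searched on both strands and were found in 3 of the 179 windows (1.68%), against 3.01% of the other chromosome 19 genes and 2.52% of all 22132 promoter windows. None of the 25 members with a CTCF 5' peak in any list and a matched window held them (0%, up to 13.7% by the exact 95% interval), while 6.16% of the other chromosome 19 genes with such a peak did. Among all protein-coding genes with such a peak, 5.61% held them. The CTCF peaks at member starts were wider than the 300 bases searched, with medians of 1897, 1834 and 1130 bp in the 3 lists. For its own counts, the study kept CTCF peaks with a consensus motif under the peak, found by another search. Absence of these letters from a window therefore does not show that the peak lacks a motif. The 3 matches are shown because they are all that the members held, in capitals throughout, read 5′ to 3′ on the gene's strand, at chr19:37719847-37719858 (minus strand), chr19:57279965-57279976 (plus strand) and chr19:57830277-57830288 (plus strand).
ZNF607: GCCTCCTACTGG
ZNF460: CCAATAGAGGGC
ZNF587B: GCCCTCTGGTGG
The letters ran with the gene in ZNF460 and against it in ZNF607 and ZNF587B. None of these 3 genes had a CTCF peak at its start. ZNF460 had SMC1 there in control and ICM, and the other two had none.

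Some starts serve more than one gene. The 5' window held the start of another protein-coding gene in 23 members (9.35%) and in 15.5% of the other chromosome 19 genes. SMC1 lay at 15, 11 and 12 of these 23 members in control, ICM and senescent cells (65.2%, 47.8% and 52.2%) and at 64.8%, 64.8% and 56.4% of the corresponding others. Genome-wide, SMC1 lay at 62.9%, 55.7% and 47.8% of genes with such a window. Where no other start shared the window, it lay at 28.7% of members and 28.4% of the others in control, 26.5% and 25.4% with ICM, and 26.0% and 21.6% in senescence. The genome-wide shares for such windows were 28.0%, 24.5% and 20.1%.

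The corepressor genes through which many of these proteins act were read from a list of 16 genes. SMC1 lay at the 5' ends of 8, 8 and 6 of them in control, ICM and senescent cells, where 33.3%, 29.2% and 24.3% of all protein-coding genes had it. CTCF lay at 2, 4 and 3, against 10.6%, 15.1% and 11.3% genome-wide. TRIM28, itself on chromosome 19, had SMC1 at percentiles 94.7, 95.1 and 92.3, with CTCF not called in control and at 35.95 and 22.6 with ICM and in senescence. SETDB1, the partner of TRIM28, had SMC1 in control cells alone (24.6).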

How the data were processed

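CUT&Tag libraries of IMR90 were analysed from 6 deposited peak lists, 1 per sample. Per the methods of the study and the submitters' processing notes, reads were mapped to hg38 with Bowtie2 2.3.4.1 (Picard 2.20.7 and deepTools are also listed), calibrated with carry-over E. coli reads, and peaks were called per library with SEACR 1.3 in stringent mode on the top 1%. The deposited values are the authors' total and highest signal per peak, all whole numbers. The lists give no read depth, and the methods state a minimum but no total per library. The 1 chrM peak was left out where present. The largest chromosome 17 peak end, 83206712, was checked against the build.

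Gene positions came from the RefSeq table (GRCh38.p14). Strand came from the RefSeq promoter table (216 members) or, by symbol and chromosome, from GENCODE (30 members), and 344 of 19974 protein-coding genes without a strand were left out, 44 of them on chromosome 19. The 4 hyphenated readthrough symbols were not counted as members. Peaks were overlapped by at least 1 bp, with exact Clopper-Pearson and Newcombe 95% intervals (Python 3.11.15, numpy 2.4.6, pandas 2.3.3, scipy 1.17.1, matplotlib 3.10.9). Window counting was tested on simulated data. With 1 library per group no test between conditions was made.

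The rule for members used name and place alone, but it and the gene lists were chosen with earlier results of these data known. Named were 6 genes of known function, the 2 highest ranked members per list, the 3 highest per class of conditions, those in all 6 lists, the 2 highest ranked last 3 kb peaks per list clear of other 5' windows, and the 2 with most body peaks per antibody in control. Counts of zinc fingers per protein were not made here.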

Additional observations from a re-analysis of the deposited data

Results flagged for a closer look

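The share of members with a 5' end peak differed from control in opposite directions for the 2 antibodies. For CTCF it stood 5.29 points above control with ICM and 3.25 points above it in senescence. For SMC1 the differences were -3.66 points with ICM and -3.66 points in senescence. The directions were the same in the other chromosome 19 genes (5.53 and 2.94 points for CTCF, -2.59 and -7.09 for SMC1) and in all protein-coding genes (4.49 and 0.667, -4.06 and -9.02). Each rests on single libraries with lists of different length, and whether the antibodies differ in this was not tested. With lists of equal length the CTCF values were 0.407 and -1.63 points and the SMC1 values -2.03 and 2.03 points.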

How the results depend on the processing

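Of 194 alternative values, 167 stayed within the 95% interval of the value reported and 27 moved outside it, and none reversed a difference whose interval lay clear of 0. All 54 alternatives for the last 3 kb remained below 0, and 64 of 66 for the 5' end, 46 of 54 for the gene body and 18 of 20 for the condition differences stayed inside the interval, which for the condition differences takes the gene counts of 2 lists as separate sets and holds no replicate error. Against genes of other chromosomes, the differences in points were -1.59 for CTCF in senescence at the 5' end, -8.59, -8.41 and -9.61 for CTCF over the gene body in control, ICM and senescence, and in the last 3 kb -3.05, -4.19 and -3.63 for CTCF and -4.42, -3.36 and -2.96 for SMC1. With peaks above each list's median signal they were -10.5 for SMC1 in control at the 5' end and -10.8 over the gene body, and in the last 3 kb -5.47 and -5.62 for CTCF with ICM and in senescence and -4.98 and -4.37 for SMC1 in control and with ICM. With summits in place of overlap they were -9.33 for CTCF in control over the gene body, and in the last 3 kb -2.36, -3.98 and -4.29 for CTCF in the 3 conditions and -4.00 and -4.29 for SMC1 in control and with ICM. Gene interiors gave -10.9 and -8.48 for SMC1 with ICM and in senescence, and genes of 10 to 50 kb gave -18.8 for CTCF in control over the gene body. The condition differences moved to -1.63 points for CTCF in senescence with lists of equal length and to 4.88 for SMC1 with ICM with peaks above the median signal. The cause was not tested for any of these. The alternatives of any RefSeq start and of leaving out the run from ZNF101 to ZNF254 were chosen after seeing the data. No paired analysis was possible because each group has 1 library, which also left no replicate to leave out.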
